A study of Mus musculus with 60 samples.

Results

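The cytosolic ribosomal protein genes were examined in cultured mouse hepatocytes as the 79 of 23126 rows of the deposited expression table whose symbol begins with Rpl or Rps and a digit and whose mean level over 60 libraries exceeded 1 ppm, a ppm being a part of a library's summed values scaled to 1000000. Ribosomal S6 kinases, which share the Rps prefix, and symbols containing -ps or -rs were left out by the rule. Of the 79 genes, 42 encode proteins of the large (60S) subunit and 30 proteins of the small (40S) subunit, 6 are paralogs of such genes (Rpl7l1, Rpl22l1, Rpl36al, Rpl37rt, Rps4l and Rps27l), and Rps19bp1 encodes a protein that binds Rps19 and is not itself a ribosomal protein. Rpl37rt and Rps4l are annotated as transcribed processed pseudogenes in GENCODE M21. The genes just inside the limit of 1 ppm were Rpl30 with a mean of 1.46 ppm, Rpl37rt with 2.73 ppm and Rps27 with 3.92 ppm, and the 5 genes at or under it were Rpl39l with 0.563 ppm, Rpl3l with 0.215 ppm, Rpl10l with 0.0411 ppm, Rpl26 with 0.0372 ppm and Rps27rt, listed at 0.

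The ribosome translates mRNA into protein, the small subunit decoding the message and the large subunit joining amino acids. Mammals make most ribosomal proteins from a single expressed gene each, in near-equal amounts, and their mRNAs begin with a 5′ terminal run of pyrimidines (the TOP motif) through which mTOR signalling controls their translation. Hepatocytes, which secrete most plasma proteins, are rich in ribosomes, and ribosome production rises when liver cells prepare to divide.

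Hepatocytes came from 20 drug-naïve male C57BL/6J F1 mice aged 8 weeks, 10 sired by fathers that drank nicotine (NIC) and 10 by fathers that drank the control substance tartaric acid (TA). Time course animals, 5 per father, gave libraries at 0, 1, 3 and 21 h of culture in medium with DMSO and dexamethasone, and from a further 21 h culture that the deposited table calls "none" and that the labels describe like the other one. Of the remaining animals, 2 per father were cultured for 2 h with dexamethasone and 3 per father for 2 h without it. The whole liver was dissociated, cells that had not attached were removed before 0 h, and the library names hold 4 dates, called A to D here, of which A and B are the time course, C the 2 h cultures with and D those without dexamethasone.

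Depth limited the precision of low values. As a share of the deepest library with the same date, the depth of 3 NIC libraries at 21 h was 0.0898 (NIC11), 0.0338 (NIC14) and 0.0242 (NIC15), with 9073 to 11716 genes above 0, and that of the other 47 time course libraries was 0.134 to 1 with 11058 to 15157 genes above 0. Hepatocyte markers summed to 106777 to 156938 ppm at 0 h and to 73291 to 162085 ppm at 21 h, and 6 of 8 were lower at 21 h by limma. Summed markers of Kupffer cells (42.0 to 146 ppm at 0 h, 44.0 to 561 ppm at 21 h), of sinusoidal endothelial cells (55.7 to 125 and 37.4 to 351 ppm), of cholangiocytes (10.8 to 108 and 41.9 to 206 ppm) and of stellate cells and fibroblasts (18 to 29.4 and 6.2 to 1901 ppm) varied more between libraries at 21 h, and their part in the results below was not tested. In bulk RNA, fewer cells of a type and less RNA per cell cannot be told apart.

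RefSeq promoters (GRCm38.p6) were found for 59 of the 79 genes, with 70 start sites in all, and are compared here with 32851 promoters of 27025 genes. An uninterrupted run of at least 8 pyrimidines (C or T) lying at the start base or within 5 bases of it was present at 32.9% of the ribosomal protein starts and at 9.72% of all starts, and the start base was C at 31.4% and 16.3%. The letters CTTTCC, read on the gene's strand in the 30 bases around the start, were present in 12.9% of the ribosomal protein windows and in 1.42% of all windows. Within the 300 bases of a promoter, CCGGAAG, the core of the site bound by ETS factors, was found on either strand in 32.9% against 8.86%, and GCCATCTT, the core of the YY1 site, in 11.4% against 2.75%. A match describes the letters and is no evidence of binding. The 30 bases around the start (15 before it, then 15 from the start base on) are given for genes on which the results below turn, with the longest pyrimidine run at or near the start in capitals.
Rpl12: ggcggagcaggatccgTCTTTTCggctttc
Rps15a: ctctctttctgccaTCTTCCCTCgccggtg
Rpl13a: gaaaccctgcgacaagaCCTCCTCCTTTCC
Rps6: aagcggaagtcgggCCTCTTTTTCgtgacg
Rps3a1: ttaaagccggaagggCgaaagagcaagggt
Rpl28: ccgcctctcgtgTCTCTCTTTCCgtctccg
Rpl22l1: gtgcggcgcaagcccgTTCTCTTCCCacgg
Rpl36al: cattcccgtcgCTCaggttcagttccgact
Rpl7l1: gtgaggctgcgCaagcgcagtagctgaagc

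The windows lie at chr2:32961697-32961726 (Rpl12, + strand), chr7:118116133-118116162 (Rps15a, - strand), chr7:45128731-45128760 (Rpl13a, - strand), chr4:86857353-86857382 (Rps6, - strand), chr3:86142654-86142683 (Rps3a1, - strand), chr7:4792950-4792979 (Rpl28, + strand), chr3:28805493-28805522 (Rpl22l1, + strand), chr12:69184053-69184082 (Rpl36al, - strand) and chr17:46782642-46782671 (Rpl7l1, - strand). Rps15a, Rpl13a and Rps6 hold runs of at least 8 pyrimidines near the annotated start, and Rpl12 holds a run of 7. Rps3a1, which rose in culture like them, has a single C at this start and the letters ccggaag upstream of it. Among the paralogs, Rpl22l1 has a run of 10 pyrimidines and Rpl36al and Rpl7l1 have runs of 3 and 1. None of the 6 start windows matched to paralogs held CTTTCC.

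At 0 h the ribosomal protein genes formed an abundant class, with means from 1.33 ppm (Rpl30) to 1014 ppm (Rpl10). Their median level was 355 ppm, against 8.31 ppm over the 11135 genes whose mean exceeded 1 ppm, and 69 of the 79 genes were above 100 ppm. None was among the 100 highest genes, and 56 were among the 500 highest. The highest was Rpl10, whose protein completes the large subunit late in its maturation, with 1014 ± 86.4 ppm (SD, n = 10, range 876 to 1175). It was followed by Rpl23a, a protein at the exit of the peptide tunnel, with 846 ± 73.6 ppm, by Rpl7 with 792 ± 63.3 ppm, by Rpl41, the smallest ribosomal protein, with 734 ± 98.5 ppm, and by Rps2 with 712 ± 93.8 ppm. From Rpl23a to Rps2, neighbours in this order differed by less than their SD, and Rpl10 lay above Rpl23a by more than the SD of either, although the ranges overlapped (876 ppm and up for Rpl10, up to 1011 ppm for Rpl23a).

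At the low end stood several genes that encode core proteins of the ribosome. Rpl30 had 1.33 ± 2.51 ppm and was listed at 0 in 7 of 10 libraries at 0 h, Rpl37rt had 1.56 ± 1.45 ppm, Rps27 had 1.79 ± 1.74 ppm, Rpl34 had 5.97 ppm and Rps19bp1 had 8.96 ppm. Rpl26, below the limit, had a mean of 0.0372 ppm. Rpl26, Rpl30, Rpl34 and Rps27 are such core genes. Ribosomal protein genes have many processed pseudogenes, and of the 50-base windows of the coding sequence, 83.3% of Rpl30, 71.5% of Rpl34, 87.4% of Rpl26 and 100% of Rps27 also occur in transcripts of other genes in GENCODE M21. Over the 77 genes with a coding sequence the median of this share was 90.3%, 63 genes were above 50%, 26 were at 100%, and Rps19bp1 was at 0%. How the authors treated reads that match several genes is not given in the sources used here, so levels of single genes are uncertain, and the part of such reads in the low levels was not tested.

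The summed level of the 79 genes rose in culture, little in the first hours and to 1.69 times its starting level by 21 h. It was 2.83 ± 0.173% of a library at 0 h (SD, n = 10, range 2.61 to 3.10), 2.95 ± 0.188% at 1 h, 3.05 ± 0.159% at 3 h and 4.78 ± 0.577% at 21 h (4.11 to 5.83), so that every library at 21 h lay above every library at 0 h. Within animals, the level relative to 0 h was 1.04 at 1 h and 1.08 at 3 h, above 1 in 9 of 10 animals each time, and 1.69 ± 0.168 at 21 h, above 1 in 10 of 10 (1.43 to 1.98). The 2 h cultures without dexamethasone had 3.37 ± 0.288% (n = 6) and those with it 1.48 ± 0.174% (n = 4), but the latter values are CPM, not scaled for transcript length, and come from another date, so these were not compared.

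**Figure D1:**
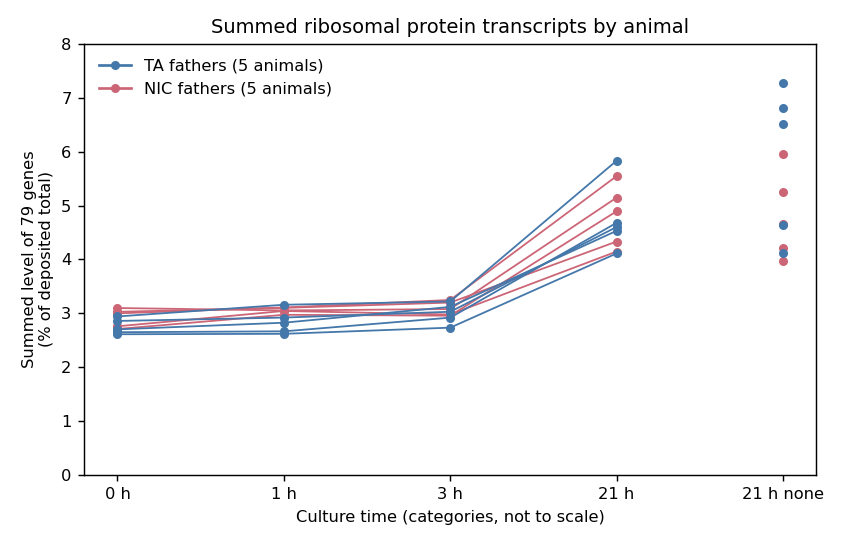
Summed level of the 79 ribosomal protein genes in percent of each library's total (vertical axis) by culture condition, with a point per animal for TA and NIC fathers. All 10 animals sit between 2.61 and 3.10% at 0 h and between 4.11 and 5.83% at 21 h, and the 21 h none cultures reach 7.27%.

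Gene by gene, the comparison of 21 h with 0 h asks how the hepatocytes' ribosomal protein transcripts changed during culture. By limma with the animal as block, 67 of the 79 genes were higher at 21 h, 1 was lower and 11 did not pass an adjusted p of 0.05, where 29% of all genes tested were higher and 21.7% lower. The median log2 difference was 0.68 for the 79 genes and 0.12 for all genes. Scaling each library to its 75th percentile lowered these medians to 0.49 and -0.03, with 59 of the 79 genes higher and 1 lower (26.2% and 28.1% of all genes), and quantile normalization gave 0.81 and -0.003 with 67 and 1 (27.3% of all genes each way). In 43 genes every animal was higher at 21 h, which held for 7.18% of all genes, and in 30 genes each of the 10 libraries at 21 h lay above each of the 10 at 0 h, against 2.97% of all genes.

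Both subunits took part: 39 of 42 large subunit genes and 28 of 30 small subunit genes were higher, with median log2 differences of 0.73 and 0.68. Rps3a1 (chr3:86137940-86142702, - strand, GRCm38), a small subunit protein near the mRNA exit, had 653, 732, 683, 692 and 606 ppm at 0 h and 1206, 1375, 1228, 1448 and 1027 ppm at 21 h in TA1 to TA5. In NIC11 to NIC15 it had 753, 725, 881, 648 and 738 ppm at 0 h and 1040, 1206, 1559, 1466 and 1908 ppm at 21 h. All values at 21 h were above all values at 0 h, and Rps3a1 had the smallest p of the class (log2 difference 0.90, SE 0.09, limma adjusted p 5.89e-12).

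In the large subunit, Rpl12 (chr2:32961559-32965345, + strand), which anchors the stalk that recruits translation factors, rose most, from a median of 391 ppm (lowest 281, highest 436) to 850 ppm (601 to 1436), a ratio of means of 2.41 (log2 difference 1.23, SE 0.14, limma adjusted p 2.25e-10). The groups did not overlap. Rpl24, which bridges the subunits, went from 454 ppm (374 to 502) to 894 ppm (604 to 1158), also without overlap (log2 difference 0.96, SE 0.10). Rpl7 rose by a log2 difference of 0.88 (SE 0.10), and Rpl17, at the tunnel exit, by 0.80 (SE 0.09). The highest gene, Rpl10, rose by 0.71 (SE 0.09), Rpl41 by 0.63 (SE 0.09) and Rpl13a, which is also known as a regulator of inflammatory mRNA translation, by 0.86 (SE 0.11). The smallest change that passed in the large subunit was that of Rpl3, with 400 ppm (214 to 497) at 0 h and 555 ppm (200 to 862) at 21 h, overlapping ranges (log2 difference 0.40, SE 0.15, limma adjusted p 0.0266).

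In the small subunit, Rps15a had the largest difference, from 37.4 ppm (25.9 to 46.5) to 77.2 ppm (59.3 to 158), without overlap (log2 difference 1.18, SE 0.14, limma adjusted p 4.45e-10). Rps14, which lies on the platform of the subunit and is lost in a form of myelodysplastic syndrome in people, went from 499 ppm (371 to 564) to 979 ppm (677 to 2100.5), a log2 difference of 1.08 (SE 0.13). Rps23, a protein of the decoding centre, rose by 0.96 (SE 0.11). Rps6, which is phosphorylated on mTOR signalling, had 564 ppm (458 to 620) at 0 h and 798 ppm (723 to 1268) at 21 h, again with no overlap (log2 difference 0.65, SE 0.09). Rps19, the gene most often mutated in Diamond-Blackfan anaemia in people, rose by 0.72 (SE 0.14).

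Rpl5, Rpl11 and Rpl23 encode the proteins that bind Mdm2 and thereby link ribosome assembly to p53. All 3 were higher at 21 h by limma. Rpl5 went from 284 ppm (226 to 309) to 472 ppm (337 to 631) without overlap, a log2 difference of 0.74 (SE 0.12). Rpl11 (0.52, SE 0.13) and Rpl23 (0.55, SE 0.11) rose on average, but their lowest libraries at 21 h, 263 and 352 ppm, lay below their lowest at 0 h, 399 and 365 ppm.

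**Figure D2:**
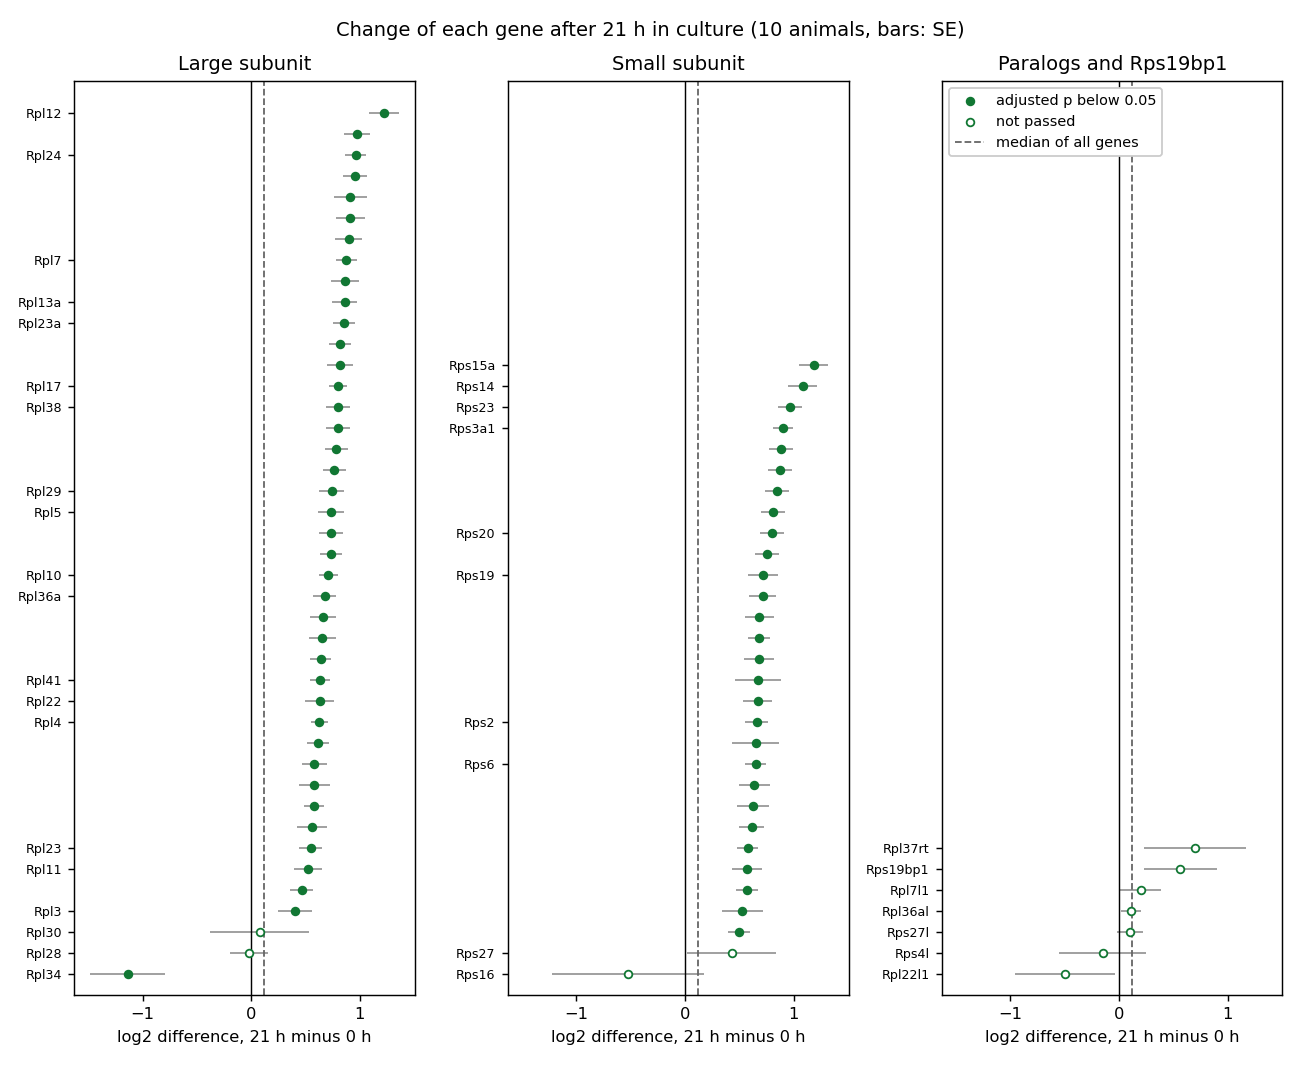
Log2 difference of 21 h against 0 h (horizontal axis) with its SE for each of the 79 genes, in panels for the large subunit, the small subunit and the remaining genes, with labels for genes named in the text. 39 of 42 large subunit and 28 of 30 small subunit genes passed above 0, whereas none of the 6 paralogs did and Rpl34 passed below 0.

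The paralogs did not pass with their relatives at 21 h. None of the 6 was called at 21 h against 0 h, and their median log2 difference was 0.11, but whether paralogs and other members differ was not tested. That median was 0.55 in TA animals and -0.03 in NIC animals, which include the shallow libraries. In the 21 h none cultures against 0 h, 5 of the 6 were higher by limma (median 0.76). So were 40 of 42 large subunit genes, 29 of 30 small subunit genes and 5246 of all 11135 genes. Rpl36al (chr12:69182731-69184083, - strand) had 480 ppm (400 to 646) at 0 h and 548 ppm (413 to 662) at 21 h, a log2 difference of 0.11 (SE 0.09, limma adjusted p 0.313). Its relative Rpl36a had 321 ppm (272 to 372) and 485 ppm (402 to 679), with no overlap and a log2 difference of 0.68 (SE 0.10). Of the coding windows of Rpl36al and of Rpl36a, 100% also occur in transcripts of other genes. The part of shared reads in their levels was not tested. Rps27l (chr9:66946086-66949516, + strand), a p53 target, had 388 ppm (278 to 423) and 416 ppm (252 to 502), a log2 difference of 0.10 (SE 0.12). Rps27l was far above Rps27 (0 to 4.30 ppm at 0 h), all of whose coding windows occur elsewhere.

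Rpl7l1 (chr17:46773907-46782672, - strand), a relative of Rpl7, had 42.6 ppm (22 to 60.5) at 0 h and 48.4 ppm (10.4 to 87.7) at 21 h, a log2 difference of 0.20 (SE 0.19), where Rpl7 was at 796 ppm (687 to 922) and 1349.5 ppm (1102 to 2369.9). Rpl22l1 (chr3:28805436-28807424, + strand), a paralog that Rpl22 represses in mouse, had 49.7 ppm (24.2 to 67.6) and 78.2 ppm (0 to 162), and its log2 difference of -0.50 (SE 0.46, limma adjusted p 0.379) came with NIC14 and NIC15 listed at 0. Rpl22 itself rose from 63.0 ppm (53.5 to 81.5) to 103 ppm (49.9 to 142), a log2 difference of 0.63 (SE 0.13). Rps4l had 10.7 ppm (3.04 to 22.3) and 11 ppm (0 to 44.4), and Rpl37rt 1.31 ppm (0 to 5.16) and 2.75 ppm (0 to 25.8). Without the 3 shallow NIC libraries, 72 of the 79 genes were higher at 21 h and none lower, where 2925 and 2270 of all 11135 genes tested were.

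**Figure D3:**
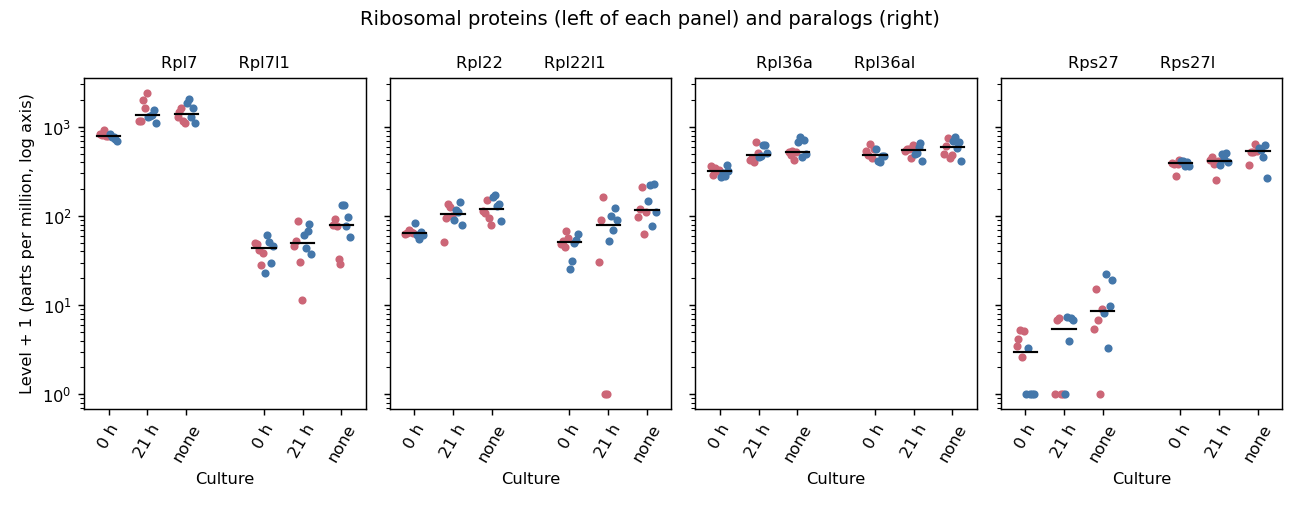
Level plus 1 ppm on a log axis of 4 ribosomal protein genes and their paralogs at 0 h, 21 h and in 21 h none cultures, a point per library (blue TA, red NIC) with medians as lines. Rpl7, Rpl22 and Rpl36a have higher medians at 21 h, at 1349.5, 103 and 485 ppm, and Rpl36al and Rps27l have medians of 548 and 416 ppm against 480 and 388 ppm at 0 h.

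Of the genes of the subunits, Rpl34 alone was lower at 21 h, and Rpl28, Rpl30, Rps16 and Rps27 did not pass. Rpl34 (chr3:130726831-130730398, - strand) had 6.42 ppm (1.37 to 10.5) at 0 h and 1.89 ppm (0 to 9.57) at 21 h, a log2 difference of -1.14 (SE 0.35, limma adjusted p 0.00533). It was listed at 0 in 4 of the 5 NIC libraries at 21 h, and without the 3 shallow libraries the call was lost (-0.86, adjusted p 0.0766). Rpl28 (chr7:4792874-4795066, + strand) had 446 ppm (382 to 513) at 0 h and 544 ppm (78.8 to 894) at 21 h, with a log2 difference of -0.02 (SE 0.17) that became 0.33 (adjusted p 0.0357) without the same libraries. Rpl30 was listed at 0 in 7 of 10 libraries at both times.

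The rise was also seen within each father and date. In TA animals alone 70 of the 79 genes were higher, as were 26.9% of all genes, and none lower, and in NIC animals alone 48 were higher, as were 13% of all genes, and Rpl34 was lower. Date A alone gave 68 higher and none lower, with a median of 0.69 and 19.5% of all genes higher, and date B alone 50 higher and 2 lower, with a median of 0.75 and 25.8% of all genes higher, both added after the data were seen. Leaving out an animal at a time gave 65 to 68 genes higher and 1 lower. Over the first hours no gene of the 79 passed, neither at 1 h against 0 h (0.00898% of all genes did, median log2 difference of the 79 genes 0.06) nor at 3 h against 1 h (0% of all genes, 0.05). An unadjusted limma p under 0.05 was reached by 0 of them in either comparison, where 412 and 292 of the 11135 genes tested reached it. Of the 79 values 65 and 66 were positive, against 36.9% and 46.2% of all genes. Positive values numbered 73 and 57 after 75th percentile scaling.

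Ribosomal proteins whose names fall outside the rule behaved alike. All 7 that could be tested were higher at 21 h, with a median log2 difference of 0.85, among them the stalk proteins Rplp0 (0.87), Rplp1 (0.83) and Rplp2 (0.97), Rpsa (0.85) and Gnb2l1, known as Rack1 (0.94). Fau, whose product is a ubiquitin-like protein fused to a ribosomal protein, rose by 0.47. Of 39 translation factors and associated genes 23 were higher and 3 lower (median 0.51). Among them Eif6, which keeps 60S subunits from joining (1.67), Eif4a2 (1.10), Tpt1 (0.98) and Naca (0.87) were higher. Gspt1 (-0.50), Eif4g1 (-0.45) and Eif3l (-0.44) were lower. Of 73 ribosome biogenesis factors 50 were higher and 1 lower (median 0.81), with Noc2l (1.76), Ddx18 (1.70) and Taf1d (1.47) higher and Rcl1 (-0.64) lower. Beside these lists, 29% of all genes tested were higher and 21.7% lower. The lists were chosen with earlier results of these data known.

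The 21 h none cultures differed less clearly from the 21 h cultures, with which they share the animals. The summed level was 5.34 ± 1.21% (3.96 to 7.27, n = 10) against 4.78 ± 0.577%. By limma 13 of the 79 genes were higher and none lower, where 23.2% of all genes were higher, and the median log2 difference was 0.15 against 0.31 for all genes. In no gene did the libraries of the groups separate without overlap. With 75th percentile scaling 3 genes were higher and 2 lower (8.53% and 5.06% of all genes) and 23 of 79 values were positive, against 72 as reported, with medians of -0.09 for these genes and 0.09 for all genes, so the direction of the class depends on the scaling. Date A alone gave 43, with 52.2% of all genes higher, and date B alone 3, with 3.63% (both added after the data were seen), and NIC animals alone gave 1, with 0.97%. The number was 6 without TA1, 5 without TA2, 8 without NIC11 and 7 without NIC12, with 9.11 to 14.9% of all genes higher, and 20 without NIC14 and 21 without NIC15, with 27.8% and 33.2%.

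The smallest p among these 13 genes was that of Rpl34, with 1.89 ppm (0 to 9.57) at 21 h and 8.08 ppm (3.33 to 20.9) in the none cultures (log2 difference 1.67, SE 0.35, limma adjusted p 0.000873). Rpl22l1 followed, with 78.2 ppm (0 to 162) and 115 ppm (62.1 to 225), a log2 difference of 1.92 (SE 0.46) that was 0.29 (adjusted p 0.355) without the 3 shallow libraries. Rpl28 (0.65, SE 0.17) and Rps4l (1.40, SE 0.40) were also higher, and Rpl28 lost the call without the shallow libraries (0.29, adjusted p 0.0967). Of the paralogs, Rpl7l1 (0.66), Rpl22l1 and Rps4l were among the 13.

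Offspring of NIC and TA fathers, the question of the study, were compared over all 60 libraries with terms for culture condition and date. None of the 79 genes passed in limma, where 0.216% of all genes did, 1 had an unadjusted p under 0.05, and 40 log2 differences were positive and 39 negative, with a median of 0.0007 against -0.11 for all genes. With 75th percentile scaling 64 were positive, and with quantile normalization 26. Rpl28 had the smallest p, with a log2 difference of -0.40 (SE 0.13, limma adjusted p 0.139), and Rpl38 the smallest among positive values, with 0.13 (unadjusted p 0.09). At 0 h Rpl28 had 513, 467, 469, 451 and 399 ppm in TA1 to TA5 and 408, 395, 498, 440 and 382 ppm in NIC11 to NIC15, which overlap. Translation factors with associated genes (39) and ribosome biogenesis factors (73) had no call either, with 36 and 71 negative values, where 7663 of the 11135 genes tested were negative.

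Within culture conditions, NIC was lower than TA in 3 genes at 21 h and in 1 gene in the none cultures, and none passed at 0, 1, 3 or 2 h. At 21 h, where 4% of all genes were lower, these were Rpl28, Rpl22l1 and Rpl34. Rpl28 had 738, 397, 608, 894 and 593 ppm in TA1 to TA5 and 563, 488, 524, 78.8 and 221 ppm in NIC11 to NIC15 (log2 difference -1.04, limma adjusted p 0.0154). Only NIC14 and NIC15, which with NIC11 are the shallow libraries, lay below the range of TA. Rpl22l1 had 50.8, 99.3, 68.1, 123 and 89.9 ppm in TA and 29.2, 88.4, 162, 0 and 0 ppm in NIC (-2.63, limma adjusted p 0.0195), and Rpl34 had 2.51, 7.04, 4.96, 1.27 and 9.57 ppm in TA and 0, 8.04, 0, 0 and 0 ppm in NIC (-1.76, limma adjusted p 0.0342).

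All 3 calls were lost without the shallow libraries, as was every one of the 602 calls made at 21 h over all genes. Only NIC12 and NIC13 then remained in NIC at 21 h, and the part of fewer libraries in this loss was not tested. Without NIC11, NIC14 and NIC15 at 21 h, Rpl28 had a log2 difference of -0.34 (limma adjusted p 0.755), Rpl34 one of -1.20 (0.714), and Rpl22l1 turned positive, to 0.62 (0.741). Exact two-sided permutation of fathers within dates gave p of 0.133 for Rpl28, 0.183 for Rpl22l1 and 0.10 for Rpl34, the smallest possible p being 0.0167.

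In the none cultures, where 3.84% of all genes were lower in NIC, Rpl29 (chr9:106429454-106431568, + strand), a large subunit protein, was the gene that passed. It had 675, 679, 505, 574 and 458 ppm in TA1 to TA5 and 486, 432, 474, 249 and 354 ppm in NIC11 to NIC15, overlapping in TA5 (log2 difference -0.56, limma adjusted p 0.048, exact permutation p 0.0167). The permutation p is the smallest possible. It was computed only for genes that limma had called in the same libraries, without adjustment, so it is no separate support. Of the 79 genes 76 were negative, with a median of -0.28 against -0.47 for all genes, but with 75th percentile scaling 68 were positive, and Rpl29 had -0.07 (adjusted p 0.875). The calls over all conditions, 4 as reported, numbered 9 without the shallow libraries, all lower in the none cultures, where 16.2% of all genes were then lower. They numbered 0 for date A and 8 for date B (dates added after the data were seen), the 8 being 7 lower and 1 higher at 21 h, where 14.8% and 6.73% of all genes were. The NIC libraries at 21 h on date B were NIC14 and NIC15 alone, both shallow. The calls numbered 0 without TA4, NIC14 or NIC15, 2 without TA2, 9 without NIC12, 17 without NIC13 and 19 without TA5. Of the 19, 18 were lower in the none cultures, as were 14.9% of all genes. Of the 17, 16 were lower and 1 was higher, the latter at 21 h. In the none cultures 10 were lower, as were 13.6% of all genes. At 21 h 7 were lower, as were 10.9%, and these counts overlap. Of the 9 without NIC12, 5 were lower in the none cultures, as were 12.9%, and 4 at 21 h, as were 7.15%.

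The difference between fathers in the change from 0 to 21 h was not called for any of the 79 genes by limma, where 0.198% of all genes were called. The smallest adjusted p was 0.132, and 6 of the 79 genes had an unadjusted p under 0.05, all with a negative difference (NIC minus TA), as had 1613 of all 11135 genes in either direction, with a median difference of -0.17 over all genes. Date B alone gave 5 calls, all negative, with 5.92% of all genes called negative, and leaving out NIC12 or NIC13 gave 2 each, with 1.6% and 2.88% of all genes called negative. On date B the only NIC libraries at 21 h were NIC14 and NIC15, both shallow. In the 4 libraries of date C, whose read counts could be recovered, edgeR's quasi-likelihood test called 0 of 75 genes, with 0 at an unadjusted p under 0.05, where it called 1 of 8621 genes and 655 had an unadjusted p under 0.05.

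**Figure D4:**
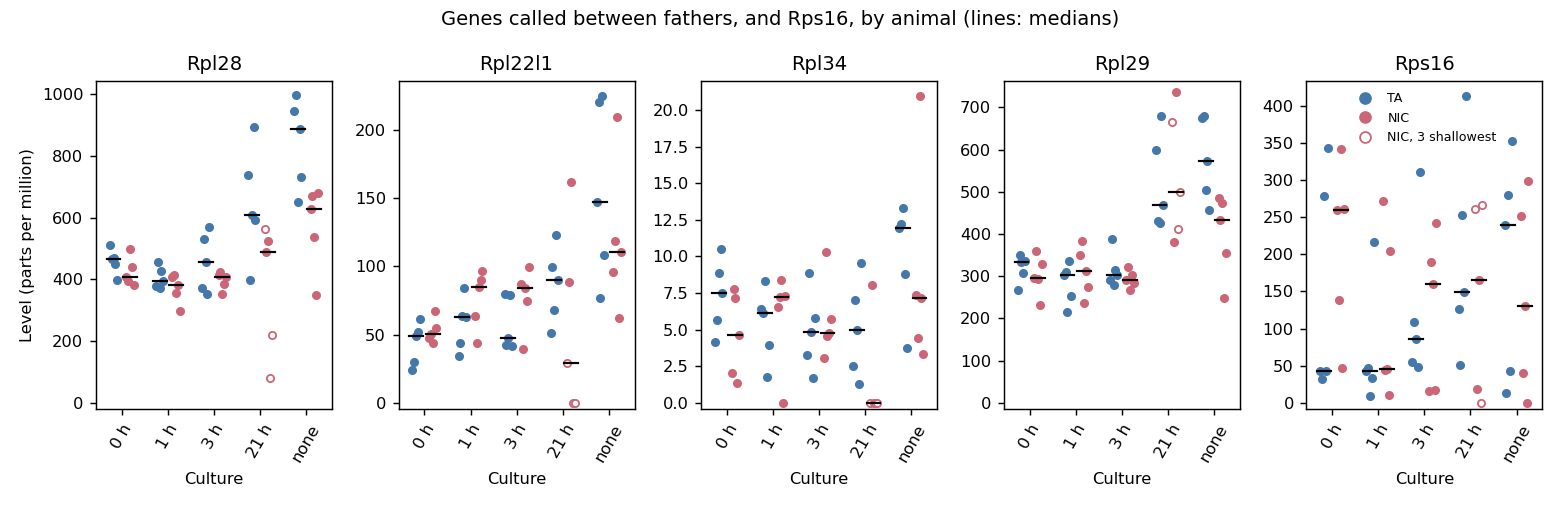
Levels in ppm of Rpl28, Rpl22l1, Rpl34, Rpl29 and Rps16 by culture condition, a point per library of TA and NIC fathers, with open points for the 3 shallowest NIC libraries at 21 h. The low NIC values of Rpl28 at 21 h, 78.8 and 221 ppm, are open points.

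Most of the genes followed the median of the class over the time course libraries. This r was not computed for other genes, so the counts have no share over all genes beside them. The part of the rise at 21 h in r was not tested. As a description over the 50 time course libraries, which share animals, depth and culture time, Pearson's r between a gene's log2 level and the median of the other 78 genes was above 0.9 for 27 genes, led by Rpl13a (0.973), Rps20 (0.966) and Rpl4 (0.956), and above 0.5 for 70. The 9 genes at or under 0.5 were Rpl28 (0.482), Rps4l (0.444), Rps27 (0.436), Rps27l (0.394), Rpl22l1 (0.275), Rpl37rt (0.272), Rps16 (0.048), Rpl30 (0.018) and Rpl34 (0.003).

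Among them Rps16 (chr7:28350652-28353155, + strand), a small subunit protein, was abundant and yet apart, ranging from 0 to 413 ppm. In some animals it kept to a level of its own at all times. TA5 had 344, 216, 311, 413 and 353 ppm at 0, 1, 3 and 21 h and in the none culture, and NIC15 had 262, 204, 242, 266 and 298 ppm. NIC14 had 46.2, 11.1, 17.4, 0 and 0 ppm, below every library of TA5 and NIC15. Other animals did not keep 1 level: TA3 had 278, 9.30, 85.6, 253 and 280 ppm. All coding windows of Rps16 occur in other transcripts, and the part of reads shared with those transcripts was not tested.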

How the data were processed

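Hepatocyte RNA was depleted of rRNA, made into strand-specific libraries and sequenced on a NextSeq 500, and the authors used Bowtie2 (mm10) for alignment and tested with DESeq2 and Holm-Bonferroni correction. Versions, counting tool and annotation are not given in the sources used here. The deposited table describes all values as ppm. CPM were deposited for the 4 date C libraries, of whose values 100% came to whole numbers of reads (tolerance 0.05, totals 1530794 to 2793007). The remaining 56 deposited columns look like TPM, scaled by transcript length, from their uneven steps. Both are called ppm here. The table has 27 symbols turned into dates.

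The 11135 genes with a mean above 1 ppm were tested with limma 3.58.1 (R 4.3.3) on log2(ppm + 1), with a trend on mean level and the animal as random block (consensus correlations 0.0957 over all libraries, 0.111 per father and condition), and p-values were adjusted over all of them by the Benjamini-Hochberg method. Differences are on the log2(ppm + 1) scale, which understates low genes. All conditions shared a spread per gene. The block rests on the library titles, which put libraries of an animal in runs of numbers. The NIC library of the none culture that the study lists under animal 11 was assigned to NIC14 by its title. Genes that limma called between fathers at 21 h or in the none cultures were tested by exact permutation, and date C reads with edgeR 4.0.16. The members and gene lists were chosen with earlier results of these data known. Named genes were the 5 highest and 5 lowest at 0 h, the 5 of smallest p per direction and comparison (or 2 where none passed), the paralogs, the 3 least like the other members, and genes of known roles, with Rpl28. Rps14, Rps15a, Rps23, Rpl36a, Rpl22, Rps20, Rpl38 and Rpl3 were chosen after their values were seen. Some genes are not reported here. Alternatives were other pseudocounts, filters, scalings, array weights, an animal as fixed term, and libraries left out. Dexamethasone was not compared, since condition, date and unit coincide.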

Additional observations from a re-analysis of the deposited data

Results flagged for a closer look

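In 60 groups of 5 animals tested for a library apart from the others by Dixon's criterion, 5 were marked. Chance marks about 1 in 20 independent groups, but these groups share animals. All 5 were of Rpl34 or Rps16, which are among the 3 genes least like the other members, so that rate does not apply to them. Rpl34 was listed at 0 in NIC14 at 1 h, with 6.53 to 8.41 ppm in the other NIC libraries. At 21 h Rpl34 had 8.04 ppm in NIC12 and was listed at 0 in the other NIC libraries. In the none cultures Rpl34 had 20.9 ppm in NIC13 and 3.33 to 7.37 ppm in the others. Rps16 had 216 ppm in TA5 at 1 h, against 9.30 to 46.2 ppm in the other TA libraries, and 311 ppm in TA5 at 3 h, against 47.8 to 109 ppm.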

How the results depend on the processing

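Other settings were run for 87 pairs of a gene and a comparison. These were the pairs that passed, 68 of them at 21 h against 0 h, with Rpl28 over all libraries and at 21 h against 0 h. Of 1205 values, 1066 kept direction and side of the threshold, 129 lost the call and 10 changed sign. Leaving out an animal at a time gave 849, 68 and 3 of 920. The cause was not tested for any of them. Rpl28 at 21 h against 0 h (-0.02 as reported) had 0.0606 with quantile normalization, 0.19 with array weights, 0.0081 with the animal as listed by the study, 0.33 without the 3 shallow libraries, 0.44 in TA animals and 0.25 on date A, and -0.14 to 0.23 leaving out an animal, positive without TA2, NIC14 or NIC15. Rpl22l1, NIC against TA at 21 h, had 0.62 without the shallow libraries and 0.0972 on date A. In none against 21 h cultures, Rpl4 had -0.0473 with 75th percentile scaling and Rpl23 had -0.11 on date B.

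Calls in none against 21 h cultures (13 as reported) numbered 5 with 75th percentile scaling (13.6% of all genes called), 7 with quantile normalization (16.8%), 48 with array weights (52.2%), 1 in NIC animals (1.11%), 43 on date A (57.3%), 3 on date B (9.23%) and 5 to 21 leaving out an animal. NIC against TA within conditions (4) gave 9 without the shallow libraries (all lower in none cultures, as were 16.2% of all genes), 0 on date A, 8 on date B (7 lower at 21 h, as were 14.8%) and 0 to 19 leaving out an animal, and the interaction (0) 5 on date B (all negative, as were 5.92% of all genes) and 0 to 2. With the animal as a fixed replicate block, 67 of the 79 genes were higher and 1 lower at 21 h against 0 h, where 3171 and 2385 of all 11135 genes were. In none against 21 h cultures 16 were higher, as were 2483 of all genes. At 1 h against 0 h and 3 h against 1 h 0 were called. This block changed no count by over 1.5 times. The ratio of summed levels at 21 h (1.69) was 1.75 as a share without the 50 highest genes, 1.67 as a median over genes and 1.65 to 1.72 leaving out an animal. The 3 shallow NIC libraries had 9073 to 11716 genes above 0, so a value of 0 there is not evidence of absence. NIC14 and NIC15, 2 of them, were the only NIC libraries at 21 h on date B.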
